A study of Mus musculus with 3 samples.

Results

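The cells described here are Pi16 fibroblasts, a small group of connective tissue cells in a single-cell RNA sequencing library of mouse Peyer's patches (PP), the lymphoid follicles of the small intestine. They were found among 2643 fibroblasts of the control library by the RNA they carried, and 162 cells met the rule, which is 6.13% of these fibroblasts (95% Clopper-Pearson interval 5.25 to 7.11%) and 2.96% of the 5473 cells kept. A cell counted as a fibroblast when its unique molecular identifiers (UMIs, 1 for each captured RNA molecule) of *Col1a1*, *Col1a2*, *Dcn*, *Pdgfra* and *Lum* came to at least 5 and outnumbered those of 5 endothelial genes (*Pecam1*, *Cdh5*, *Egfl7*, *Emcn* and *Flt1*). It was a Pi16 fibroblast when *Pi16*, *Mfap5*, *Igfbp6* and *Scara5* together had at least 4 UMIs and more than each of 3 other gene lists. Those lists mark Adamdec1 fibroblasts (*Adamdec1*, *Col6a5*, *Tcf21*, *Hsd11b1*), Ccl19 fibroblasts (*Ccl19*, *Cpxm1*, *Tnfsf13b*, *Thbs4*) and Bmp7 fibroblasts (*Bmp7*, *Wif1*, *Fgf9*, *Tmem119*). The share of Pi16 fibroblasts depends on the threshold and on depth, with 103 cells (3.90%) at a threshold of 8 UMIs and 77 (2.97%) when every cell was first thinned to 1000 UMIs. The cells were thus chosen by their UMI counts of these genes, and the same counts describe them, so every value below is a description without a test.

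The study asked how the transcription factor COUP-TFII, encoded by *Nr2f2*, regulates gene expression in the endothelium of gut lymphoid tissue, and it deposited 3 libraries made from sorted endothelial cells (EC). The control library is labelled WT, of strain C57BL/6, while the study describes both tamoxifen-treated littermates without Cre and WT mice as controls, so which of these it holds is uncertain. The other libraries, EC-iCOUPOE replicates 1 and 2, are labelled CDH5(PAC)CreERT2;COUP-TFIIOE/OE, in which the endothelial Cdh5 promoter drives a tamoxifen-inducible Cre that switches on extra COUP-TFII in endothelium and not, by design, in fibroblasts. The labels give every library an age of 6 to 10 weeks and cells taken 14 to 19 days after tamoxifen, with male and female cohorts processed together. The day on which each library was taken and the number of mice behind it are not given in the sources used here. The libraries are labelled blood endothelial cells, and for the control library the markers go against that label in part, because fibroblasts made up 48.3% of its kept cells while 2214 cells passed as blood EC. Fibroblasts were 0.379% of kept cells in EC-iCOUPOE replicate 1 and 0.402% in replicate 2. For its own analysis the study removed cells with signatures other than blood endothelium, fibroblastic reticular cells among them. The deposited counts used here still hold fibroblasts. The control library held 17341398 UMIs in 6080 barcodes, with a median of 2368.5 UMIs for each barcode, and it shared 12 barcodes with EC-iCOUPOE replicate 2, none of them a Pi16 fibroblast.

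Fibroblasts of an organ are not uniform. Those that carry Pi16 are known from many mouse organs as cells of the adventitia, the outer sleeve of larger vessels, and of similar connective tissue planes, and they are often described as a reservoir from which other fibroblasts can arise. Their usual markers are a secreted peptidase inhibitor (*Pi16*), a microfibril protein (*Mfap5*), a binding protein for insulin-like growth factors (*Igfbp6*), a scavenger receptor that takes up ferritin (*Scara5*) and the surface glycoprotein endosialin (*Cd248*). Other gut fibroblasts lie under the epithelium and in the villus core, and those of lymphoid tissue make the chemokines that guide lymphocytes. Position in the tissue was not measured in these libraries.

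The Pi16 fibroblasts held 534780 UMIs, with a median of 3204.5 UMIs and 1430 genes per cell, against a median of 2773 UMIs and 1318 genes in the 2481 other fibroblasts. Among the latter, 1388 cells were Adamdec1 fibroblasts, 514 were Ccl19 fibroblasts, 32 were Bmp7 fibroblasts and 547 were unclassified. The summed UMIs of the 4 rule genes per Pi16 fibroblast ran from 4 to 59 with a median of 10, while the highest of the other list sums ran from 0 to 11 with a median of 2. In the other fibroblasts 1903 of 2481 cells had no UMI of these 4 genes. The groups overlapped in these sums, since other fibroblasts reached 24 UMIs. At the threshold, 20 cells held exactly 4 UMIs and just entered, 28 fibroblasts with 3 UMIs above every other list just missed, and 52 had 4 or more UMIs but no more than another list.

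**Figure D1:**
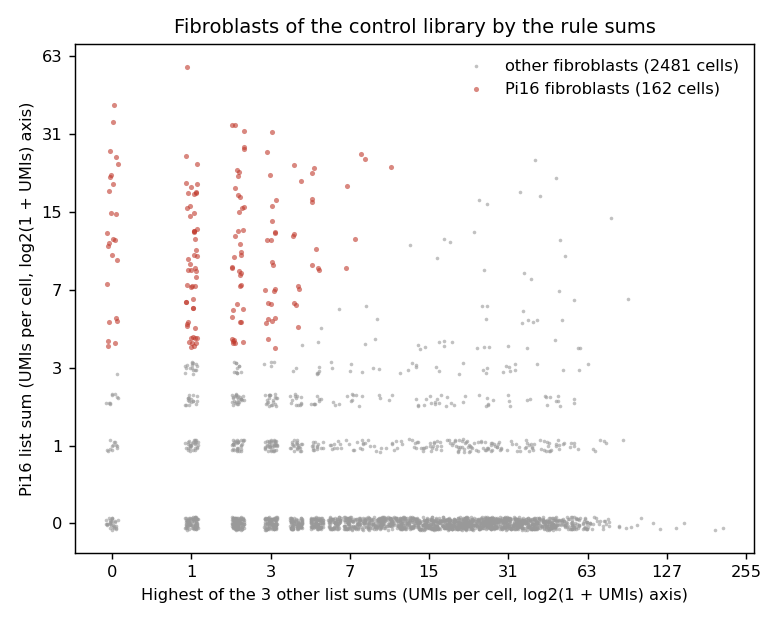
Each point is 1 fibroblast of the control library, with a small random shift to separate equal values, the vertical axis giving the summed UMIs of *Pi16*, *Mfap5*, *Igfbp6* and *Scara5* and the horizontal axis the highest of the 3 other list sums, both as log2(1 + UMIs). The 162 Pi16 fibroblasts (red) start at 4 UMIs, and most of the 2481 other fibroblasts (grey) lie at 0.

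No rule gene was detected in every Pi16 fibroblast. *Mfap5* ranged from 0 to 29 UMIs per cell (median 4) with 20 cells at 0, and *Igfbp6* from 0 to 20 (median 3) with 19 cells at 0. *Pi16* itself ranged from 0 to 15 UMIs (median 2), and 40 cells had none. *Scara5* ranged from 0 to 7 UMIs (median 1) with 55 cells at 0. All 4 genes were seen together in 71 cells, 3 of them in 56, 2 in 27 and a single one in 8 cells.

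The label was checked with markers that the rule did not use. *Cd248* (GRCm38, chr19:5068078-5070682) stood at 299 CPM (a gene's UMIs scaled to a fixed total of UMIs; 95% Poisson interval 255 to 349) in the summed Pi16 fibroblasts and at 30.3 CPM (26.5 to 34.5) in the other fibroblasts. Per cell it ranged from 0 to 7 UMIs with a median of 1, and 78 Pi16 fibroblasts had none. The sialomucin *Cd34* was found at 1032 CPM against 315, and the membrane-anchored *Ly6a*, the stem cell antigen Sca-1, at 1515 against 400. *Dpp4*, a surface peptidase that marks such cells in several organs, had only 3 UMIs in 3 of the 162 cells (1.85%). It was seen in 10 of the 2481 other fibroblasts (0.403%), and with so few UMIs no call was made on it. At the threshold, *Cd248* was at 71.9 CPM in the 20 cells with 4 UMIs, 71.5 CPM in the 28 cells that missed with 3 UMIs, 369 CPM in the 85 cells with 10 or more, and 17.2 CPM in the fibroblasts with none. The first and second of these levels rested on 4 and 6 UMIs. *Pcolce2*, described below, had more, and was at 593 CPM in the cells with 4 UMIs, 488 CPM in those that missed with 3 and 36.5 CPM in those with none, so the cells just outside lay near the cells just inside. In the 52 fibroblasts with 4 or more UMIs that another list kept out, *Cd248* was at 240 CPM on 47 UMIs, above the level of the cells that just entered. *Pcolce2* went the other way in these 52 cells, at 178 CPM on 35 UMIs, below the 593 CPM of the cells that just entered. Of the 5 markers that define the label, 4 chose the cells and *Cd248* was higher, so the cells are called Pi16 fibroblasts, and the word adventitial is used below for a gene list only.

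Depth differed between the groups, so each cell was also thinned to 1000 UMIs before the share of cells with a UMI was taken. At that depth *Pi16* was seen in 53.7% of Pi16 fibroblasts (75.3% unthinned), in 1.44% of Adamdec1 fibroblasts and in 0.316% of blood EC (0.632% unthinned), which serves as the background level. *Cd248* was seen in 27.8% of Pi16 fibroblasts (interval 21.0 to 35.3%; 51.9% unthinned), 3.96% of Adamdec1 fibroblasts, 0.195% of Ccl19 fibroblasts and 0.181% of blood EC (0.361% unthinned). *Pcolce2* was seen in 46.9% of Pi16 fibroblasts, and in 20.3% of unclassified fibroblasts but only 2.38% of Adamdec1 fibroblasts. *Cd34*, *Ly6a* and *Ly6c1* belong to endothelium as well, with shares of 40.5, 40.2 and 59.7% in blood EC. The median depth before thinning was 2543 UMIs in the blood EC. *Dpp4* was seen in 1.85% of Pi16 fibroblasts unthinned and in none after thinning, where genes with few UMIs drop out.

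**Figure D2:**
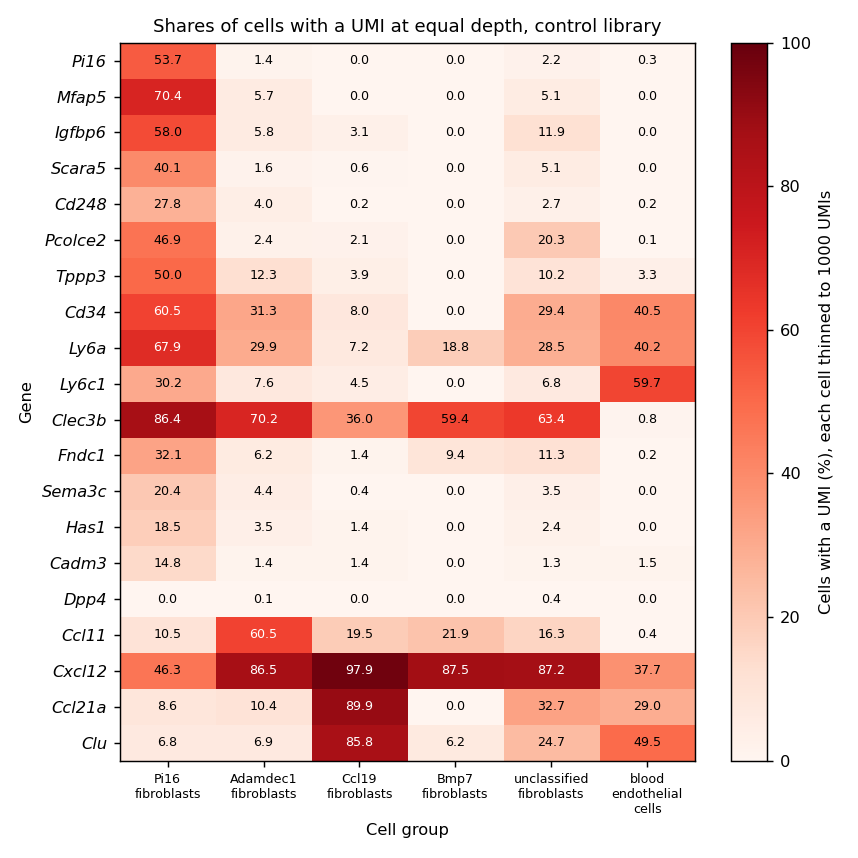
Rows are genes, columns are cell groups of the control library, and each cell of the grid gives the percentage of cells with at least 1 UMI after thinning every cell to 1000 UMIs. *Mfap5* was seen in 70.4% of Pi16 fibroblasts and *Cd248* in 27.8%, while *Cxcl12* was seen in 46.3% of them against 97.9% of Ccl19 fibroblasts.

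Several other cell types left few UMIs in the Pi16 fibroblasts. None of 7 mesothelial genes, *Msln* and *Upk3b* among them had a UMI. The 6 epithelial genes summed to 1 UMI, the 6 glial genes to 3, the 10 leukocyte genes to 15 (8 of them *Lyz2*) with *Ptprc* and *Cd52* at 0, and 4 haemoglobin genes to 1. Cell division genes summed to 8 UMIs, 7 of them in 1 cell. The 12 blood endothelial genes, 5 of which the rule used to part fibroblasts from endothelium, summed to 597 CPM, against 930 CPM in other fibroblasts and 9549 CPM in blood EC, and *Ramp2* gave most of it (299 CPM). Of 6 lymphatic genes, *Prox1*, *Lyve1*, *Mmrn1* and *Reln* had no UMI, and *Ccl21a* gave 147 of the 148 UMIs. Pericyte and smooth muscle genes summed to 432 CPM against 2159 CPM in other fibroblasts; *Rgs5* was the most abundant (219 against 1036 CPM) and 82 of the 231 UMIs came from 1 cell. The part of these markers in the differences below was not tested. Doublet calling marked 3 of the 162 cells (1.85%) and 116 of the other fibroblasts (4.68%).

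Across the 9317 genes with at least 50 UMIs in either group, outside the rule genes, 252 (2.7%) were 2-fold or more higher in Pi16 fibroblasts and 1046 (11.2%) were 2-fold or more lower. These counts depend on the UMI minimum, with 444 genes higher at a minimum of 20 UMIs, and 151 higher and 693 lower at 100. Requiring in addition that the 95% counting interval of the ratio lie beyond no change left 226 genes higher (2.43%) and 580 lower (6.23%). The median log2 ratio over all these genes was -0.09. There was 1 control library and its cells are not replicates, so no p-value was computed, and all intervals here express counting error alone. The other fibroblasts held 7429017 UMIs, so a gene could reach the minimum through them with few UMIs in Pi16 fibroblasts.

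Several of the 20 genes with the largest increase encode extracellular matrix proteins or act on them. *Col8a1* (chr16:57624258-57754737), a chain of type VIII collagen found around vessels, was at 359 CPM (310 to 414) in Pi16 fibroblasts and 32.8 CPM in other fibroblasts, 10.9-fold higher, with 91 of 162 cells holding a UMI. *Pcolce2* (chr9:95637601-95698096), which enhances the trimming of procollagens, was at 699 CPM against 72.0, 9.71-fold higher, and ranged from 0 to 9 UMIs per cell with a median of 2. Both were seen over many cells, not a few. The fibronectin domain protein *Fndc1* (419 against 64.2 CPM), the matrix-bound metalloprotease inhibitor *Timp3* (456 against 96.4 CPM) and the secreted *Olfml2b* (303 against 65.8 CPM) were 6.52-, 4.73- and 4.60-fold higher.

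Hyaluronan synthesis was represented by *Has1* (chr17:17843323-17855205), the enzyme that makes this long sugar polymer at the cell membrane, at 295 CPM (251 to 345) against 37.4 CPM. Its UMIs came from 61 of 162 cells, with up to 10 in a cell, so most Pi16 fibroblasts showed none at this depth. *Gfpt2*, which supplies the amino sugar route that feeds hyaluronan, was at 170 CPM against 20.6, 8.26-fold higher. The related synthase gene *Has2* and the link protein gene *Hapln1* stayed under 50 UMIs in both groups.

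Several surface and secreted proteins followed. *Cadm3* (chr1:173333258-173367695), an adhesion molecule of the immunoglobulin family, had the highest ratio among the named genes outside the rule, 151 CPM (120 to 188) against 11.0 CPM or 13.7-fold. It rested on 81 UMIs in 59 cells, with at most 4 in a cell. The secreted guidance protein *Sema3c* was at 223 against 30.8 CPM and the secreted *Metrnl* at 219 against 40.4 CPM, with UMIs in 71 and 76 of the 162 cells. *Ly6c1* was at 507 against 108 CPM, and reads of near-identical Ly6 genes may be shared, so its level is uncertain. *Npy1r*, a receptor for neuropeptide Y, *Tmem100*, a transmembrane protein, *Enpp3*, an ectoenzyme that splits nucleotides, and *Dner*, a Notch ligand-like protein, were 6.15-, 6.55-, 5.42- and 6.69-fold higher on 26 to 58 UMIs each. Among intracellular proteins, *Tppp3*, a tubulin-binding protein, was at 909 CPM (830 to 993) against 122, and the small LIM protein *Crip1* at 4385 CPM against 1035. *Crip1* was present in 161 of 162 Pi16 fibroblasts (median 10 UMIs, highest 102) and in 1947 of the other fibroblasts (median 2). The G protein subunit *Gngt2* and the zinc finger protein *Zfp385a* were 6.54- and 6.37-fold higher on 48 and 33 UMIs.

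**Figure D3:**
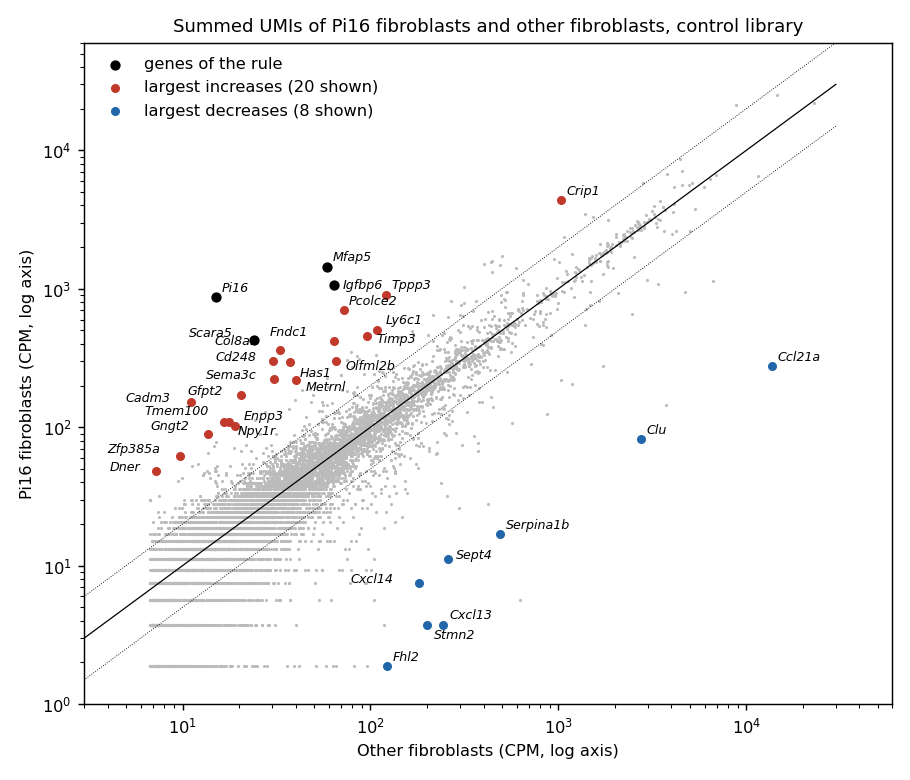
Each point is 1 gene of the control library, with its summed level in other fibroblasts on the horizontal axis and in Pi16 fibroblasts on the vertical axis, both in CPM on log axes, where the solid line marks equal levels and the dotted lines 2-fold, black points are the 4 rule genes, and genes at 0 UMIs in either group, *Igkc* and *Jchain* among them, cannot be drawn. Of the named genes outside the rule, *Cadm3* (13.7-fold) and *Col8a1* (10.9-fold) lie farthest above the line of equal levels.

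Because the other fibroblasts are mostly Adamdec1 cells, the same genes were set against each group, with the same Pi16 fibroblasts in every comparison. *Pcolce2* differed from Adamdec1 fibroblasts by 4.21 on the log2 scale and from Ccl19 fibroblasts by 5.12, but from unclassified fibroblasts by only 1.62. *Col8a1* showed the same order, with 4.13, 4.65 and 2.01. *Cd248* was nearest to Adamdec1 fibroblasts (2.70) and farthest from Ccl19 fibroblasts (6.44), where 7 UMIs were found in 514 cells. The nearest group was thus not the same for every gene. *Timp3* was 1.82 above Adamdec1 fibroblasts and 3.16 above unclassified ones, *Npy1r* 4.67 above Adamdec1 but 1.48 above Ccl19 fibroblasts, and *Crip1* between 1.89 and 2.45 above each of the 3 groups. Against Adamdec1 fibroblasts 151 of 7372 genes (2.05%) were 2-fold higher and 764 (10.4%) lower, 580 of the latter (7.87%) with an interval beyond no change. Against Ccl19 fibroblasts 247 of 4837 (5.11%) were higher and 513 (10.6%) lower, 498 (10.3%) with an interval beyond no change. The 32 Bmp7 fibroblasts held 86751 UMIs, and of the 1538 genes that could be compared with them 269 (17.5%) were higher, 226 (14.7%) with an interval beyond no change, and 120 (7.8%) lower.

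**Figure D4:**
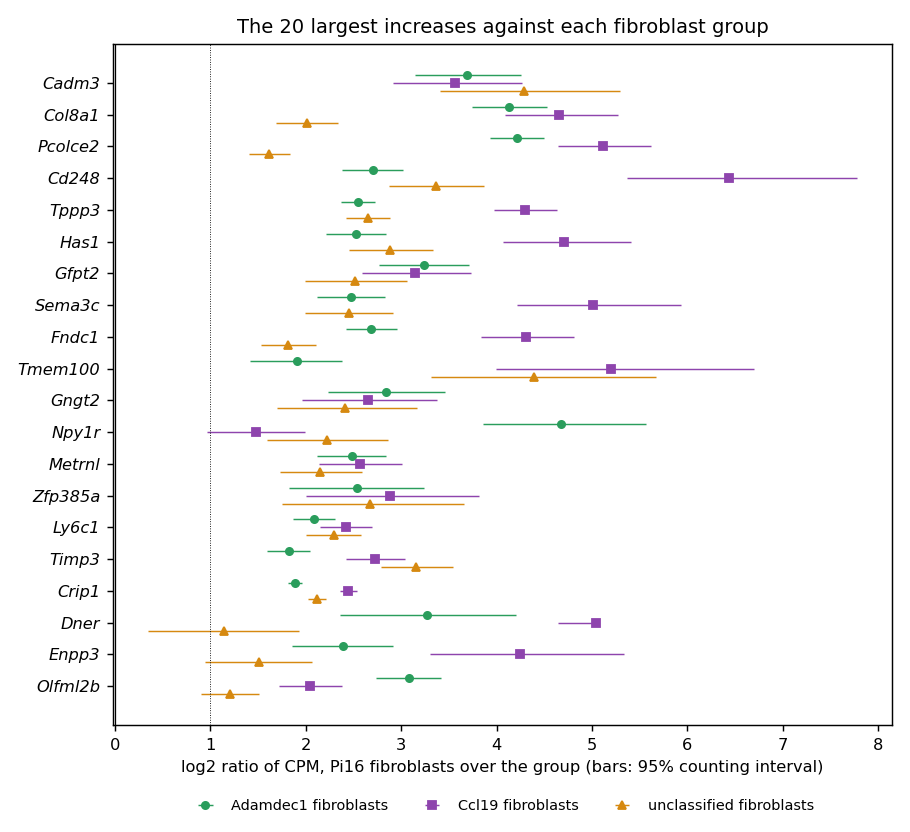
The 20 genes with the largest increase against all other fibroblasts, chosen for it, are shown with their log2 ratio of CPM in Pi16 fibroblasts over Adamdec1 (circles), Ccl19 (squares) and unclassified fibroblasts (triangles), where bars are 95% counting intervals, *Dner* against Ccl19 fibroblasts is a lower bound because that group had no UMI, *Dner*, *Gngt2* and *Zfp385a* have under 50 UMIs in all these groups, and the dotted line marks 2-fold. *Pcolce2* lies at 4.21, 5.12 and 1.62.

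The 10 genes with the largest decrease included 3 chemokines. *Cxcl13*, the chemokine that draws B cells into follicles, had 2 UMIs in 162 Pi16 fibroblasts (3.74 CPM, interval 0.453 to 13.5) against 242 CPM in other fibroblasts, and *Clu*, which encodes the chaperone clusterin, 82.3 CPM against 2746. *Ccl21a*, a CCR7 ligand that attracts T cells and dendritic cells, was at 275 CPM against 13694, 49.8-fold lower; 101 of its 147 UMIs came from 1 Pi16 fibroblast and 118 of the 162 cells had none. Its symbol is carried by 2 gene entries whose counts were added. *Cxcl14*, another chemokine, was 24.2-fold lower, the septin *Sept4* 23.2-fold, the microtubule regulator *Stmn2* 53.2-fold and the LIM protein *Fhl2* 65.6-fold, on 1 to 6 UMIs each in Pi16 fibroblasts. With so few UMIs the log2 intervals were wide, from -8.78 to -3.88 for *Stmn2*, -11.34 to -3.55 for *Fhl2* and -9.06 to -4.16 for *Cxcl13*. *Serpina1b*, one of several near-identical antitrypsin genes between which reads can be split, was 29.2-fold lower. *Igkc* and *Jchain*, immunoglobulin chains of plasma cells, had no UMI in Pi16 fibroblasts, but 2631 of the 2980 *Igkc* UMIs and 770 of the 884 *Jchain* UMIs of the other fibroblasts came in each case from 1 cell. The group compared mattered for these genes, in different directions. *Ccl21a* and *Clu* stood at -2.04 and -1.85 on the log2 scale against Adamdec1 fibroblasts and at -7.28 and -6.66 against Ccl19 fibroblasts, whereas *Cxcl13* stood at -6.46 (-9.51 to -4.61) and -4.91 (-7.96 to -3.04).

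Gene lists put these genes in context. Of 25 genes known from adventitial fibroblasts, 20 reached 50 UMIs, and 17 of them were 2-fold or more higher in Pi16 fibroblasts, against 2.7% of all genes, and none lower. The list median was 1.67 on the log2 scale against -0.09 for all genes, and these are genes known to accompany *Pi16*, so the list is not independent of the rule. Beside those named above, the list includes the complement-shielding *Cd55* (499 against 166 CPM), the receptor tyrosine kinase *Axl* (473 against 169 CPM), the matrix glycoprotein *Tnxb* (335 against 108 CPM), the scavenging chemokine receptor *Ackr3* (112 against 24.4 CPM), *Clec3b* (2367 against 1069 CPM), which encodes tetranectin and was seen in all 162 cells, and *Anxa3*, *Heg1* and *Limch1*. *Fn1*, which encodes fibronectin, was 0.95 higher on the log2 scale, the alarmin *Il33* 0.26 higher, and the protein C receptor *Procr* -0.77 lower, all within 2-fold. *Il33* differed by the group compared, at 1.46 against Adamdec1 fibroblasts and -1.01 against Ccl19 fibroblasts. *Clec3b* and *Fn1* were within 2-fold of Adamdec1 fibroblasts and higher against Ccl19 fibroblasts. *Limch1* was within 2-fold of Ccl19 fibroblasts, and *Procr* was lower against them. *Dpp4*, *Dact2*, *Efhd1*, *Emilin2* and *Wnt2* were too low to compare.

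Cytokines and chemokines lay on the other side. Of 24 measured genes of this list 18 were 2-fold or more lower in Pi16 fibroblasts, against 11.2% of all genes, and none was higher (median -1.45); 15 of the 18 also had an interval beyond no change. *Cxcl12*, the retention signal for CXCR4 bearing cells, was at 944 CPM (864 to 1030) against 4700 CPM, and ranged from 0 to 30 UMIs per cell with a median of 2, against a median of 8 in other fibroblasts. The eosinophil attractant *Ccl11* was at 125 against 868 CPM, and it was lowest relative to Adamdec1 fibroblasts (-3.53). The survival factors *Il7*, *Kitl* and *Il34*, which support lymphocytes, mast cells and macrophages, had 2, 6 and 8 UMIs in Pi16 fibroblasts and log2 ratios of -4.98 (-8.03 to -3.12), -3.23 and -2.39. *Il6*, *Csf1*, *Tslp*, *Cxcl9*, *Il33* and *Ccl2* stayed within 2-fold. *Ccl2* (224 against 141 CPM) came from 12 cells only, with up to 36 UMIs in a cell. In a list of lymphoid stroma genes 6 of 9 were lower (median -3.01, or -1.55 in thinned cells), the adhesion molecule *Vcam1* among them (67.3 against 372 CPM), while *Pdpn* and *Ltbr* were within 2-fold. *Il7*, *Ccl21a* and *Cxcl13* belong to both lists, and the Ccl19 genes that the rule limits are known to go with them.

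**Figure D5:**
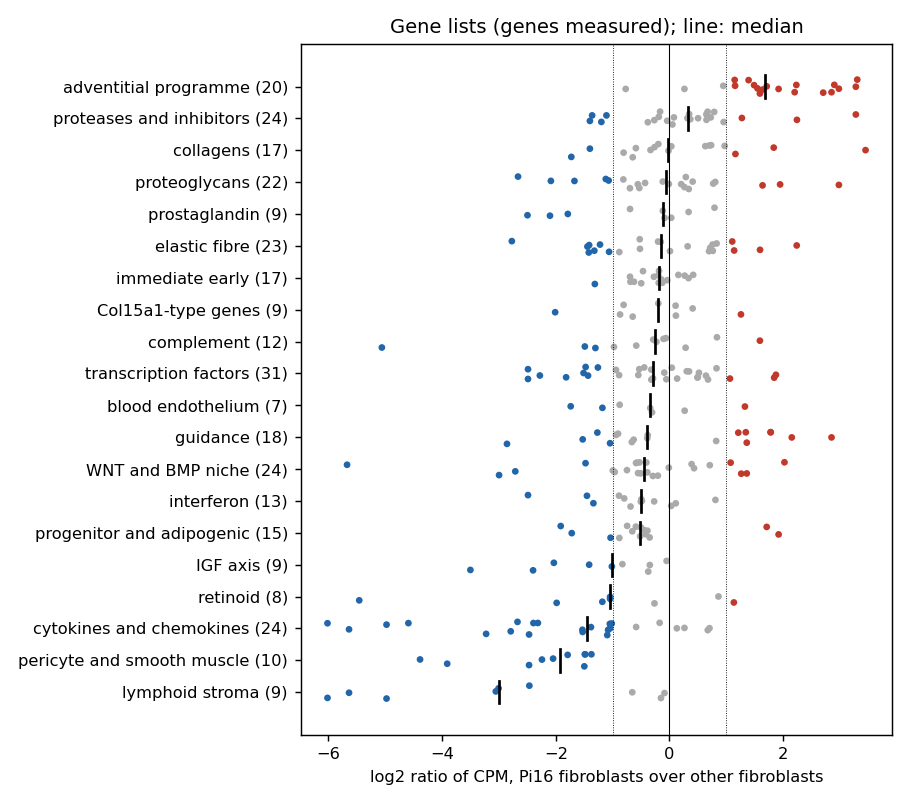
Each point is 1 gene and its log2 ratio of CPM, Pi16 fibroblasts over other fibroblasts, by gene list, with the number of genes measured in brackets, where red and blue points are 2-fold or more higher and lower, grey points lie within 2-fold, and the black line is the list median. The adventitial list has its median at 1.67, cytokines and chemokines at -1.45 and lymphoid stroma at -3.01 (-1.55 in thinned cells).

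The matrix lists held genes in both directions against all other fibroblasts, to be read beside the 2.7% of all genes higher and 11.2% lower. Among 17 collagen genes outside the rule 3 were higher and 2 lower, with a median of -0.02, close to that of all genes, and its sign changed with the cells compared. *Col14a1*, a collagen that coats fibrils, was at 1556 against 436 CPM, *Col6a3* at 817 against 365 CPM, and *Col12a1* and *Col23a1* were lower on 5 and 0 UMIs. *Col3a1*, the main fibrillar collagen beside type I, was at 8731 against 4454 CPM, just within 2-fold. For elastic fibres 4 of 23 genes were higher and 7 lower. The higher ones were the microfibril backbone *Fbn1* (649 against 215 CPM; median 2 UMIs per cell against 0), *Adamtsl5*, *Fbln1* and *Fbln2*, and the lower ones were *Mfap4* (552 against 1379 CPM), *Fbln5*, *Fbln7*, *Efemp1*, *Emilin1*, *Ltbp1* and *Ltbp2*. *Eln*, the elastin gene, was 0.70 higher on the log2 scale, within 2-fold. *Efemp1* stood at -2.23 against Adamdec1 fibroblasts, and at 3.02 against Ccl19 fibroblasts, where its 32 and 15 UMIs were under the minimum for a call. Against Ccl19 fibroblasts alone, where 5.11% of all genes were higher and 10.6% lower, 8 of 13 collagen genes were higher and none lower (median 1.37), and 9 of 20 elastic fibre genes were higher and 1 lower (median 0.58). Against Adamdec1 fibroblasts 2 of 16 collagen genes were higher and 4 lower, and 2 of 22 elastic fibre genes were higher and 7 lower, beside 2.05 and 10.4% of all genes. *Col8a1*, *Col14a1*, *Adamtsl5* and *Fbn1* were the higher ones there, while *Col6a3*, *Fbln1* and *Fbln2* were within 2-fold of Adamdec1 fibroblasts. Of 22 proteoglycan and related genes set against all other fibroblasts, *Has1*, *Gpc3* and *Tnxb* were higher and *Srpx2*, *Gpc1*, *Fmod*, *Tnc* and *Sdc1* lower. Of these 5 lower genes, 4 had an interval beyond no change. Of 24 proteases and inhibitors *Pcolce2*, *Timp3* and *Timp1* (181 against 75.0 CPM) were higher, and *Mmp3*, *Htra1*, *Serpina3n* and *Serpine2* lower. The actin-severing *Gsn* was abundant, at 21106 against 8824 CPM. It was within 2-fold of Adamdec1 fibroblasts and 2-fold or more higher only against Ccl19 fibroblasts of these 2 groups. The remaining 8 measured genes of its list mark Col15a1 type fibroblasts of other organs. Against all other fibroblasts they held 1 lower gene (*Penk*, 1 UMI), whose interval did not lie beyond no change, and none higher. *Col15a1* and *Lpl* were lower against Adamdec1 fibroblasts, and *Lpl*, *Hspg2* and *Col15a1* were higher against Ccl19 fibroblasts.

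Signals to the epithelium and nerves differed gene by gene. In a list of WNT and BMP genes and some others, *Ackr4* and *Cd81* among them, 4 of 24 were higher and 4 lower. These counts and the guidance counts below stand beside 2.7 and 11.2% of all genes. *Ackr4*, a scavenger of CCL19 and CCL21, was at 305 CPM (median 1 UMI per cell, highest 8) against 75.0, the follistatin-like *Fstl1* at 621 against 259 CPM, and the WNT amplifier *Rspo2* and the BMP antagonist *Chrd* were higher on 17 UMIs each. *Ackr4* was 2.75 above Adamdec1 and 3.35 above Ccl19 fibroblasts on the log2 scale, but 0.56 above unclassified fibroblasts. *Frzb* and *Dkk2*, which restrain WNT signals, were lower with 1 and 11 UMIs, and *Bmp5* and *Wnt4* had none. The BMP antagonist *Grem1* and the WNT amplifier *Rspo3* were within 2-fold of all other fibroblasts, at 0.78 and 0.31 on the log2 scale against Adamdec1 fibroblasts but at -1.12 and -1.07 against Ccl19 fibroblasts. In the guidance list 7 of 18 were higher, among them *Sema3c*, *Sema3d*, *Slit2*, *Slit3* (239 against 69.6 CPM), *Plxdc2* (273 against 79.6 CPM) and *Ntn1*, and 4 were lower, namely *Nrp1* (87.9 against 253 CPM), *Robo2*, *Ntf3* and *Sema3f*. *Slit2* and *Slit3* encode ligands of the Robo receptors, of which *Robo1* was within 2-fold and *Robo2* was lower against Adamdec1 fibroblasts (-1.64) but within 2-fold of Ccl19 fibroblasts (-0.67).

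Of 31 transcription factors 3 were higher and 8 lower, beside 2.7 and 11.2% of all genes. *Ebf1* was at 310 CPM (166 UMIs) against 86.6 CPM, with a log2 ratio of 1.84 (1.59 to 2.09), *Creb5* at 135 against 36.7 CPM, with 1.87 (1.48 to 2.25), and *Tcf7l2* at 78.5 against 37.6 CPM. *Foxf2*, *Zfhx4*, *Meox1*, *Nr2f1*, *Sox4*, *Hoxa5*, *Nr2f2* and *Egr2* were lower, on 2 to 23 UMIs, 6 of the 8 with an interval beyond no change. *Nr2f2*, the gene that the study overexpressed in endothelium, was at 22.4 CPM (11.6 to 39.2) in Pi16 fibroblasts and 60.6 CPM in other fibroblasts of the control library. *Nkx2-3*, a regional factor of the gut, was at 230 against 332 CPM, within 2-fold, and at -1.01 on the log2 scale against Adamdec1 and 0.30 against Ccl19 fibroblasts.

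Since *Ebf1* and *Creb5* were higher in these cells, the letters known for their factor families were looked for in the 250 bases before the RefSeq start of the named increased genes and the rule genes (GRCm38.p6; 18 of 24 genes matched). CCCNNGGG, the core of EBF sites, which reads the same on both strands, was in the windows of *Cadm3*, *Crip1*, *Pcolce2* and *Zfp385a*, which is 22.2% of 18 genes, beside 13.4% of all 27018 genes in the table. TGACGTCA, the cyclic AMP response element, also the same on both strands, was in that of *Has1* only (5.56%, beside 1.77%). Windows of 3 genes, picked because they hold a match, are printed 5′ to 3′ on the gene's strand with these letters in capitals, *Cadm3* from chr1:173367696-173367945 (minus strand), *Pcolce2* from chr9:95637378-95637627 (plus strand) and *Has1* from chr17:17855189-17855438 (minus strand). Apart from these 3 genes, *Crip1* and *Zfp385a*, the matched genes, *Col8a1*, *Gfpt2*, *Sema3c* and *Fndc1* among them, held neither run of letters in this window. A match is a run of letters and not a shown binding site.
Cadm3: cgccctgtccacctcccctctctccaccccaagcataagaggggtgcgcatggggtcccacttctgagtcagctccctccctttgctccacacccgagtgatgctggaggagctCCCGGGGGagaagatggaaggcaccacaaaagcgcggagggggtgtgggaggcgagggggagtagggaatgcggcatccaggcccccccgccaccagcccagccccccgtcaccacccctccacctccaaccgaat
Pcolce2: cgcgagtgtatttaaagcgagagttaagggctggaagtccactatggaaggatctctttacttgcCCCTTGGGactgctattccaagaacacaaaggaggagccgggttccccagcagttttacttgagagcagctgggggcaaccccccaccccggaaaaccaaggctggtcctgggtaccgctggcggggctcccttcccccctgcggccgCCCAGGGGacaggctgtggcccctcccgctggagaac
Has1: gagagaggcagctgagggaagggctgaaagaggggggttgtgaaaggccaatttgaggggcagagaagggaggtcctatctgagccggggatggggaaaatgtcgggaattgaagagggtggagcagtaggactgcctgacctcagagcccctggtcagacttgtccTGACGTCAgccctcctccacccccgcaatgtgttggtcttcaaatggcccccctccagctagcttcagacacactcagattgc
The letters begin 136 bases before the start in *Cadm3*, 185 and 37 bases before it in *Pcolce2*, and 83 bases before it in *Has1*.

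The growth factor and metabolic lists are likewise to be read beside the 11.2% of all genes lower and 2.7% higher. Of 9 genes of the insulin-like growth factor axis 5 were lower and none higher outside the rule gene *Igfbp6*. *Igf1* was at 74.8 against 306 CPM, *Igfbp3* at 26.2 against 297 CPM and *Igfbp4* at 815 against 1646 CPM, and *Pappa*, which cleaves these binding proteins, had no UMI. Of 8 retinoid genes the reductase *Dhrs3* was higher (95.4 against 43.5 CPM). The retinoic acid making enzymes *Aldh1a1*, *Aldh1a2* and *Aldh1a3*, the retinol dehydrogenase *Rdh10* and the retinoic acid degrading *Cyp26b1* were lower. Of these 5 lower genes, 4 had an interval beyond no change. *Aldh1a3* had the lowest ratio of CPM among them, resting on 1 UMI in Pi16 fibroblasts and 611 in other fibroblasts. These raw counts are not on 1 scale, since the groups held 534780 and 7429017 UMIs in all. *Aldh1a1* stood at -1.31 against Adamdec1 fibroblasts and at 0.75, within 2-fold, against Ccl19 fibroblasts. *Ptgs2*, *Ptger2* and *Ptger4* were lower among 9 prostaglandin genes. Among 12 complement genes *C2*, *Masp1* and *Clu* were lower, 2 of the 3 with an interval beyond no change. There *Cd55* was higher and *C3* (1687 against 2530 CPM) within 2-fold. The log2 ratio of *C3* was 0.78 against Adamdec1 and -1.48 against Ccl19 fibroblasts.

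The same shares of all genes, 2.7% higher and 11.2% lower, apply to the lists that follow. Of 15 progenitor and fat lineage genes *Ly6a* and *Cd34* were higher and *Cebpa*, *Apod* and *Fabp5* lower, with *Pparg* at 6 UMIs. Of the 3 lower genes, 2 had an interval beyond no change. Of 13 interferon response genes 3 were lower, *Isg15* and *Ifit3* among them. Of 17 immediate early genes, which respond to tissue digestion, 16 were within 2-fold and *Ier3* was lower. *Tek*, the angiopoietin receptor, was the only gene higher (28.1 against 11.2 CPM) among 7 endothelial genes outside the rule. *Plvap* and *Esam* were lower, both with an interval beyond no change. All 10 measured pericyte and smooth muscle genes were lower, 7 of them with an interval beyond no change, led by *Kcnj8* (1 UMI) and *Tagln* (28.1 against 422 CPM).

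The Pi16 fibroblasts also differed among themselves. After thinning, the variance over the mean of UMIs per cell had a median of 1.05 over 1216 genes with at least 20 UMIs, where counting alone gives about 1. It was 7.06 for *Malat1*, a nuclear RNA, 6.48 for *Gsn*, 6.19 for the collagen-binding *Sparc*, 4.77 for *Mgp*, which inhibits calcification, and 4.70 for *Col3a1*, all found in 127 or more of the 162 cells. The higher values of *Ccl21a* (17.5) and *Glycam1* (9.22) rested on few cells, since 76.9 and 72.4% of their UMIs lay in 5 cells, and *Ccl2* (6.34) had 80.0% there. *Glycam1* is a product of high endothelial venules. *Sparc*, *Mgp* and *Col3a1* thus varied over most of the cells, and *Ccl21a* and *Ccl2* were concentrated in few. *Malat1*, *Gsn*, *Sparc*, *Mgp* and *Col3a1* were abundant, with means of 22.9, 21.3, 6.69, 3.72 and 8.81 UMIs per thinned cell. Variance over the mean can grow with the level of a gene, so these values do not rank genes by relative variation.

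Cells with and without a *Pi16* UMI at equal depth, 87 and 75 of the members, were set side by side for 9 other markers, chosen after their values were seen and with no test. *Cd34* was seen in 72.4% (61.8 to 81.5%) of those with *Pi16* and 46.7% (35.1 to 58.6%) of those without, and *Fn1* in 52.9% (41.9 to 63.7%) and 30.7% (20.5 to 42.4%). *Cd248* was seen in 31.0% and 24.0%, *Ly6a* in 70.1% and 65.3%, *Clec3b* in 87.4% and 85.3%, and *Pcolce2* in 49.4% and 44.0%. *Axl* was seen in 47.1% and 26.7%, *Cd55* in 44.8% and 28.0%, and *Ackr3* in 14.9% and 2.67%.

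The effect of COUP-TFII overexpression in endothelium on these fibroblasts could not be described, because the same rule found 2 cells in EC-iCOUPOE replicate 1 (of 18 fibroblasts) and 1 cell in replicate 2 (of 5 fibroblasts), too few for the minimum of 10 set for a comparison. The first cell had 6 UMIs of *Mfap5* and 2 of *Igfbp6*, the second had 1 of *Pi16* and 3 of *Mfap5*, and the third had 4 of *Igfbp6* alone. All 3 had *Dcn*, with 94, 77 and 93 UMIs, none had *Cd248*, *Scara5* or *Has1*, and *Nr2f2* had 0, 3 and 1 UMIs. Of the 162 control cells, 135 had *Xist* UMIs and no Y-linked UMI and 9 the reverse, against 2090 and 77 of the other fibroblasts, so RNA of both sexes was present. In the 9 against 77 cells with Y-linked UMIs alone, *Cadm3* was 13.0-fold and *Col8a1* 8.52-fold higher in Pi16 fibroblasts. These folds rested on 5 and 12 UMIs, with log2 intervals from 1.34 to 6.39 and from 1.78 to 4.41. *Cd248* was 2.60-fold higher on 3 UMIs, with a log2 interval from -1.14 to 3.38. The 9 cells are under the minimum of 10, so only these single values are given. Among the decreases, *Fhl2* and *Cxcl14* had no UMI in these 9 cells, too small a sample to show a 2-fold difference for them.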

How the data were processed

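The authors deposited UMI counts per gene and cell barcode from the 10x Genomics 3′ assay, made with Cell Ranger 3.0.2 on mm10 per the submitters' processing notes; the matrix header of EC-iCOUPOE replicate 1 names version 3.1.0. The deposited counts are raw, without scaling or imputation. A barcode was kept if it held 500 genes and 1000 UMIs or more and its mitochondrial share did not pass 10%. Counts were summed over the cells of a group and given as CPM with exact Poisson intervals. Ratios carry exact intervals conditional on both counts, shares carry Clopper-Pearson intervals, and a group at 0 was set to 3 counts in all to give a bound. A gene was called at 2-fold with at least 50 UMIs in either group. List medians take genes at 0 at their bound. Named genes were the rule genes, *Cd248*, the 20 largest increases and 10 largest decreases by the interval bound nearest to no change, and list genes 2-fold away or defining a list. Members, lists and the rule were chosen with earlier results of these data known. Coordinates are GENCODE vM21, and 30934 of 31055 gene identifiers matched. The comparison was tested on simulated data. It made 2-fold calls for some unchanged genes, so the counts whose interval lies beyond no change are the firmer ones. Doublets were called with Scrublet in scanpy 1.11.5 and kept in the main values. Python 3.11.15, numpy 2.4.6, scipy 1.17.1, pandas 2.3.3 and edgeR 4.0.16 (TMM scaling only, an alternative) were used. Other alternatives varied the rule threshold, the comparison cells, the depth, the gene minimum and the cells left out. With 1 control library no test was possible. Cells of the other groups were named by the same rule with their own lists and not by clustering. Some genes of the lists are counted but not reported by name here.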

Additional observations from a re-analysis of the deposited data

How the results depend on the processing

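The number of Pi16 fibroblasts depended on the threshold and on depth. It was 103 (3.90% of fibroblasts) with at least 8 UMIs of the rule genes and 77 (2.97%) when the rule was applied to cells thinned to 1000 UMIs, while at least 3 UMIs gave 7.19%. Genes 2-fold higher numbered 444 at a minimum of 20 UMIs and 151 at 100 UMIs. Genes 2-fold lower numbered 693 at 100 UMIs and 580 where the counting interval also had to lie beyond no change, an alternative chosen after seeing the data. The median of the lymphoid stroma list was -1.55 in thinned cells, where few UMIs remain and genes at 0 take a higher bound. All 448 values of the 30 genes with the largest changes under the alternatives kept their direction and stayed beyond 2-fold. These genes were chosen as the extremes of the main comparison, and the alternatives reuse cells of the same library. This outcome was therefore largely set by the choice and is no independent support. Of the 300 list medians 11 changed sign, all near 0, in the collagen (7), elastic fibre (2), proteoglycan (1) and prostaglandin (1) lists. The median of all genes ran from -0.11 to -0.07. Leaving out cells with 3 or more *Igkc* and *Jchain* UMIs, also chosen after seeing the data, left these genes with too few UMIs for a bound. In the 9 Pi16 fibroblasts with Y-linked UMIs alone, values of single genes were taken but no counts of genes or list medians, and *Cd248* was 2.60-fold higher on 3 UMIs. The values from these 9 cells are not among the 448 above. The comparison by genotype and leaving out a library were not run, as too few cells or a single library remained. No paired analysis was possible because there was a single control library, to which the labels give no replicate number. Depth limits genes under 50 UMIs, *Dpp4* among them.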
